A study of Mus musculus with 18 samples.

Results

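The genes described here are the insulin receptor gene Insr and 9 genes that act with it or are read out by the FOXO transcription factors: Irs1, Irs2, Grb10, Pik3ip1, Foxo1, Foxo3, Txnip, Pdk4 and Ccng2. They were taken by symbol, 10 of the 56691 features of the estradiol table and 10 of the 56893 features of the Torin table, and all 10 were found once in each table and passed the filter on low counts in both experiments. The samples were mammary epithelial organoids, small 3-dimensional cultures of purified epithelial cells from the mammary glands of nulliparous wild-type C57BL/6 mice. Organoids of mice of about 24 weeks were given 10 nM estradiol or its vehicle ethanol for 11 days of a 12-day culture. Organoids of mice of about 15 weeks were grown in Matrigel droplets for 18 days and given Torin 1 at 100 nM, which blocks the mTOR kinase, or its vehicle DMSO, in 2 arms called D6 and D12. All cultures were kept in EpiCult-B medium, with serum on the first day. By the sample titles D6 was treated for 6 days and D12 for 12 days, whereas the text on the study's design has these lengths the other way round. The labels have a batch field for these libraries, but it holds only the days of the arm, so whether the arms were also handled as separate batches is not known, and arm, treatment length and any such batch cannot be told apart. Each of the 6 groups, estradiol, ethanol, Torin D6, DMSO D6, Torin D12 and DMSO D12, had 3 libraries, 18 in all. The study speaks of 3 mice and of triplicates without tying a library to a mouse, so the p-values measure the spread between these libraries, which may be partly technical. The column names of the estradiol tables carry a day tag other than 11 days and were matched to the samples by treatment and replicate number.

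Insulin binds its receptor tyrosine kinase, which recruits the adaptors IRS1 and IRS2 and through them phosphatidylinositol 3-kinase (PI3K) and the kinase AKT. AKT phosphorylates FOXO1 and FOXO3 and keeps them out of the nucleus, where they otherwise raise the transcription of genes that slow growth and, in several tissues, of the receptor and IRS2 themselves. The mTOR kinase works in one complex that activates AKT and in another that restrains IRS1 and stabilises the inhibitor GRB10, so the pathway feeds back on its own start. In the mammary gland insulin is a classical requirement for epithelial growth and milk protein expression in culture.

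Total counts ran between 20637473 and 24312079 per library in the estradiol experiment and between 23239364 and 28910688 in the Torin experiment. Levels are given as CPM (counts scaled to a common total) relative to the TMM-scaled library total, and the experiments were normalized separately, so levels are compared within an experiment only. The biological coefficient of variation was 5.27% in the estradiol experiment and 20.2% in the experiment with Torin. The third Torin D6 library stood apart from the others of its group, with a root mean square deviation from the group mean of 0.400 on the log2 scale against 0.113 to 0.255 in the other 17 libraries. Results for D6 that rest on it are given with and without it, or by single libraries. The third Torin D12 library also differed from its group. The chi-square per degree of freedom between the counts of 2 libraries was 44.4 and 48.5 for pairs with it, against 8.06 for the remaining pair. Epithelial markers, 6 in all, were abundant in every library, with summed levels of 11310 to 11882 CPM with estradiol and 11297 to 11747 CPM with ethanol. They summed to 8067 to 9758 CPM in Torin D6 and 6258 to 7408 CPM in DMSO D6, where 3 rose and 1 fell, and to 4999 to 6329 CPM in Torin D12 and 7919 to 8214 CPM in DMSO D12, where 4 fell and none rose. The 10 luminal markers summed to 3691 to 3831 CPM with estradiol and 3652 to 3856 CPM with ethanol, where 3 rose and 4 fell. Their sums were 7194 to 8403 CPM in Torin D6 and 4933 to 5875 CPM in DMSO D6, where 3 rose and 5 fell, and 4202 to 5283 CPM in Torin D12 and 5762 to 6241 CPM in DMSO D12, where 1 rose and 5 fell. Of 10 basal myoepithelial markers 2 rose and 6 fell with estradiol, with a median log2 change of -0.38 and sums of 8708 to 9201 CPM, against 8403 to 8977 CPM with ethanol. Basal sums were 1732 to 2244 CPM in Torin D6 and 2478 to 2890.5 CPM in DMSO D6, where 3 rose and 2 fell, and 1818 to 2389 CPM in Torin D12 and 3305 to 3529.8 CPM in DMSO D12, where 2 rose and 4 fell. The 10 fibroblast markers summed to 339.8 to 382 CPM in Torin D6 and 1046 to 1402 CPM in DMSO D6, and all 10 fell. In D12 they summed to 818 to 1142 CPM with Torin and 1047 to 1199.6 CPM with DMSO, where 1 rose and 3 fell. With estradiol they summed to 736 to 843 CPM, against 569 to 634 CPM with ethanol, and 6 rose and 1 fell. Immune markers, 9 of which 8 were found in the estradiol table, summed to at most 4.06 CPM with estradiol and 4.54 CPM with ethanol. They were 2.70 to 3.49 CPM in Torin D6 and 8.05 to 13.2 CPM in DMSO D6, and 2.62 to 3.08 CPM in Torin D12 and 9.06 to 13.8 CPM in DMSO D12. Adipocyte markers, 9 in all, summed to at most 1.99 CPM in any library, with Adipoq at 0 counts in Torin D6, Torin D12 and DMSO D12 and Lep at 0 in every group of the Torin experiment. The 8 endothelial markers summed to 6.97 to 19.99 CPM. The part of these cell types in the results below was not tested. In RNA from whole organoids, fewer cells of a type and less RNA per cell cannot be told apart.

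Promoter windows of the 3 members that passed the test in both Torin arms, Txnip, Pik3ip1 and Irs1, and of Arrdc4, an arrestin-domain gene related to Txnip, are printed because each of them moved the same way in both arms. They come from RefSeq on GRCm38.p6, which is not the build named for the deposited files (GRCm39), and run from 250 bases before to 50 bases after the transcript start, read along the transcript. They are Txnip at chr3:96557707-96558006 (plus strand), Pik3ip1 at chr11:3330481-3330780 (plus strand), Irs1 at chr1:82291390-82291689 (minus strand) and Arrdc4 at chr7:68749189-68749488 (minus strand). Windows of 9 of the 10 members were in the table, and Insr had none. Capitals mark matches, on either strand, to the FOXO motif TGTTTAC, to the E-box CACGTG or to CACGAG, none of which overlap here.
Txnip: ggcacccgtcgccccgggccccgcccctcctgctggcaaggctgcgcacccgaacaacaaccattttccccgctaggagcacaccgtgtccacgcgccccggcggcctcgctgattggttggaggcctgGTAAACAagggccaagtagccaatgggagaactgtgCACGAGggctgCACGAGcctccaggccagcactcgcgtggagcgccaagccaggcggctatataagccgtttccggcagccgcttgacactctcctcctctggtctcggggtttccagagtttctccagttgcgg
Pik3ip1: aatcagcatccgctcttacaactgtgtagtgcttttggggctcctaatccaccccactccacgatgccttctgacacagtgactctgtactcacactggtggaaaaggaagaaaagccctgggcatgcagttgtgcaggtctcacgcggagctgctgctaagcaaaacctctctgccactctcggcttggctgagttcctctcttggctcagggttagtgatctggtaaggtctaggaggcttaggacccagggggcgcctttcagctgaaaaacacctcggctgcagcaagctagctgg
Irs1: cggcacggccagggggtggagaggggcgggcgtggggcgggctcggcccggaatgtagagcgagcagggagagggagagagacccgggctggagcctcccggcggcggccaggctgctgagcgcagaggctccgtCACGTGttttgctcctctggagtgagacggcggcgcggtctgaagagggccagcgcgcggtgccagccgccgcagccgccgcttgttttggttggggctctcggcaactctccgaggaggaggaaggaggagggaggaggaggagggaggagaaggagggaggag
Arrdc4: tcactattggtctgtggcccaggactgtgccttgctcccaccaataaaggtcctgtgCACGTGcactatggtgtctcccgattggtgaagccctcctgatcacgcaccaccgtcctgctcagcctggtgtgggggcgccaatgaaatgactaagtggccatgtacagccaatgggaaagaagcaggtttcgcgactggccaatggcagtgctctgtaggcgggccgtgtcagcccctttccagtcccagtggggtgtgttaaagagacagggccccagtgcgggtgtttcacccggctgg
The Txnip window held a FOXO motif, in reverse, at position -121, counted from the transcript start as 1, and 2 copies of CACGAG 5 bases apart, the first at position -85. Irs1 and Arrdc4 each held 1 E-box, at positions -115 and -193. Pik3ip1 held none of the 3 motifs. Of 32851 RefSeq windows of this length, 3.65% held TGTTTAC, 7.15% CACGTG and 6.47% CACGAG, while the pair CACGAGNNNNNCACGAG was in 1 window, that of Txnip, from which its spacing was taken. Of the other members, Irs2 held an E-box at position -44 and Foxo3 a CACGAG in reverse at position 2, and Foxo1, Ccng2, Pdk4 and Grb10 held none. A match describes the letters in these windows and is not evidence that a factor binds.

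With estradiol 5 of the 10 genes fell: Txnip, Pik3ip1, Irs2, Foxo1 and Ccng2. None rose. The receptor gene Insr, Irs1, Grb10, Foxo3 and Pdk4 did not pass the test. Across all 15358 genes tested, 34% passed, with 17.4% rising and 16.6% falling (edgeR's quasi-likelihood test, Benjamini-Hochberg adjusted p under 0.05, the threshold used throughout). The median log2 change of the 10 genes was -0.17, against -0.0060 over all genes tested. Groups of 3 libraries did not overlap for the 5 genes that fell and for Foxo3, beside 46.4% of all genes.

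With Torin, Txnip and Pik3ip1 fell and Irs1 rose in both arms. Grb10 fell in D6. The other 6 genes passed in neither arm with all libraries in the fit. In D6, 1 of the 10 rose and 3 fell, beside 39.1% of 18112 genes called, 19.8% upward and 19.3% downward. In D12, 1 rose and 2 fell, beside 25.4% called, 10.8% upward and 14.6% downward. The median log2 change of the 10 genes was 0.12 in D6 and -0.13 in D12, against 0.048 and 0.012 over all genes. The D6 median lies between the values of Irs2 (0.034) and Foxo1 (0.21). Without the third Torin D6 library Foxo1 was at -0.38, so the D6 median depends on that library. It was not computed without it, and no difference in direction between the arms is read from these medians. Groups did not overlap for 5 of the 10 in D6 and 4 in D12, beside 48.5% and 43.7% of all genes. Txnip and Pik3ip1 were thus past the threshold, downward, in the estradiol comparison and in both Torin comparisons. How many of all genes did so was not counted, so this is a description. The Torin comparisons share no libraries, but they come from the same fit with a common estimate of the spread.

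**Figure D1:**
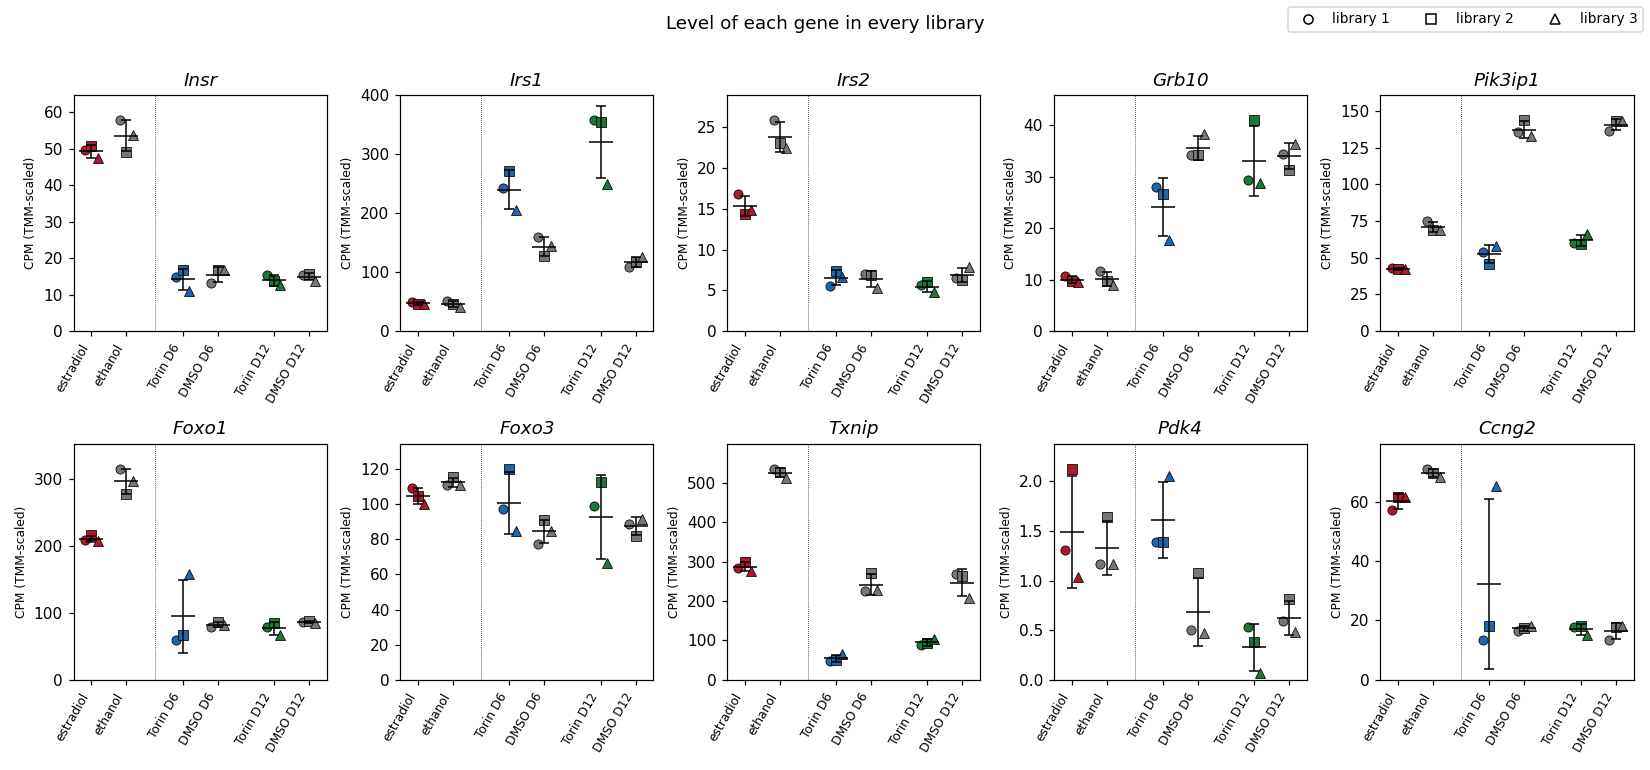
Level of each of the 10 genes in every library, in CPM relative to the TMM-scaled total, with each panel's vertical axis starting at 0. Symbols are single libraries by replicate number, horizontal bars the group mean and vertical bars the SD of 3 libraries, and the dotted line separates the experiments, which were normalized separately. The third Torin D6 library, a triangle, lies far above its group in Foxo1 and Ccng2, at 158 and 65.2 CPM.

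Among the receptor and its adaptors, Irs1 was the gene that Torin raised. Insr (ENSMUSG00000005534.11), which encodes the receptor itself, had 49.6, 50.8 and 47.3 CPM with estradiol, against 57.7, 49.2 and 53.8 CPM with ethanol. The highest estradiol library lay between the ethanol libraries, and the log2 change of -0.12 (95% interval -0.25 to 0.0054) did not pass (edgeR adjusted p = 0.132). It had 15.0, 16.6 and 11.0 CPM in Torin D6, against 13.1, 16.7 and 16.7 CPM in DMSO D6. In D12 it had 15.4, 13.6 and 12.6 CPM with Torin, against 15.3, 15.6 and 13.8 CPM with DMSO. Libraries overlapped in both arms. The intervals of the log2 change, -0.48 to 0.23 in D6 and -0.45 to 0.25 in D12, leave room for a modest change in either direction (adjusted p = 0.576 and 0.715).

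Irs1 (ENSMUSG00000055980.3), the adaptor that carries the signal from the insulin and IGF1 receptors to PI3K, had 243, 272 and 205 CPM in Torin D6, against 159, 127 and 145 CPM in DMSO D6. Every Torin library was above every DMSO library, with a log2 change of 0.74 (SE 0.15, edgeR adjusted p = 0.00188). In D12 it had 358, 354 and 249.9 CPM with Torin, against 108, 117 and 126 CPM with DMSO. Here the lowest Torin library, the third, was still well above the highest DMSO library, and the log2 change was 1.45 (SE 0.15, adjusted p = 3.67e-05), a fold change of 2.73 beside 1.67 in D6. The third Torin library was the lowest of its group in both arms, and without it the log2 change was 0.83 in D6 and 1.60 in D12. With estradiol Irs1 had 49.8, 45.5 and 45.8 CPM, against 50.7, 46.5 and 41.5 CPM with ethanol, and the values interleaved. The log2 change there was 0.024, with a 95% interval of -0.12 to 0.17 that excludes changes of the size seen with Torin (adjusted p = 0.817).

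Irs2 (ENSMUSG00000038894.8), the second main adaptor and a FOXO target in liver, had 16.8, 14.4 and 14.9 CPM with estradiol, against 25.9, 23.1 and 22.5 CPM with ethanol. All estradiol libraries were below all ethanol libraries, with a log2 change of -0.63 (SE 0.083, edgeR adjusted p = 3.34e-05). In Torin D6 it had 5.60, 7.44 and 6.61 CPM, against 7.08, 6.84 and 5.27 CPM in DMSO D6, and the groups overlapped (log2 0.034, adjusted p = 0.903). In Torin D12 it had 5.63, 6.03 and 4.79 CPM, against 6.48, 6.27 and 7.88 CPM in DMSO D12. The D12 groups did not overlap, yet the log2 change of -0.33 did not pass (95% interval -0.71 to 0.057, adjusted p = 0.207). Whether the responses to the 2 compounds differ was not tested, and the experiments also differ in mouse age, culture length and vehicle.

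Of the 2 inhibitors, Pik3ip1 fell in all 3 comparisons and Grb10 in D6. Pik3ip1 (ENSMUSG00000034614.15) encodes a transmembrane protein that binds the catalytic subunit of PI3K and lowers its activity. It had 43.1, 42.0 and 42.4 CPM with estradiol, against 74.7, 68.9 and 69.2 CPM with ethanol. The estradiol libraries were nearly equal to each other, at a mean of 42.5 ± 0.564 CPM (SD, n = 3), and the log2 change was -0.74 (SE 0.048, edgeR adjusted p = 3.16e-08). Its Torin D6 libraries had 54.2, 45.9 and 58.1 CPM, against 135, 144 and 133 CPM in DMSO D6. Its Torin D12 libraries had 59.9, 59.5 and 66.3 CPM, against 136, 143 and 143 CPM in DMSO D12. All 6 Torin libraries were below all 6 DMSO libraries. The log2 changes were -1.38 in D6 (SE 0.088, adjusted p = 3.73e-07) and -1.18 in D12 (SE 0.088, adjusted p = 4.19e-06). Without the third Torin D6 library the D6 change was -1.46.

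Grb10 (ENSMUSG00000020176.18), an adaptor that binds the activated insulin receptor and restrains it and that is imprinted in the mouse, had 27.9, 26.6 and 17.6 CPM in Torin D6, against 34.1, 34.2 and 38.3 CPM in DMSO D6. All Torin libraries were below all DMSO libraries, and the third was the lowest. The log2 change was -0.56 (SE 0.18, edgeR adjusted p = 0.0247), and it was -0.39 without that library (adjusted p = 0.0400). The call was lost without the second DMSO D6 library (adjusted p = 0.0503) and without the third (adjusted p = 0.0815). In Torin D12 Grb10 had 29.4, 40.9 and 28.8 CPM, against 34.4, 31.4 and 36.4 CPM in DMSO D12. One Torin library was the highest and the other 2 the lowest of the arm, and the change did not pass (log2 -0.044, 95% interval -0.43 to 0.34, adjusted p = 0.892). With estradiol it had 10.7, 9.78 and 9.50 CPM, against 11.6, 9.75 and 9.04 CPM with ethanol, and the values interleaved (log2 -0.022, adjusted p = 0.897).

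**Figure D2:**
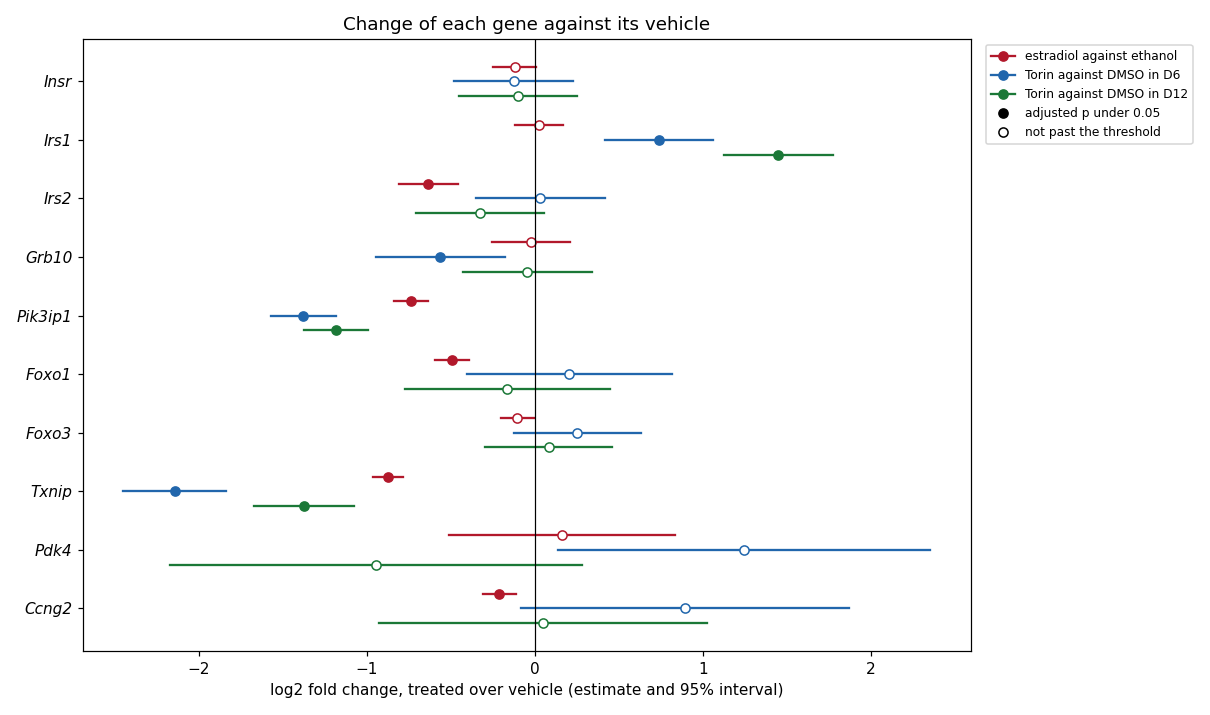
Log2 fold change of each gene, treated over vehicle, with its 95% interval from the edgeR fit (not adjusted for the number of genes), for the estradiol comparison (red) and the Torin comparisons in D6 (blue) and D12 (green). Filled points passed an adjusted p of 0.05. Txnip and Pik3ip1 lie left of 0 in all 3 comparisons, and Irs1 lies right of 0 in both Torin arms.

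Of the 2 FOXO factors, Foxo1 passed with estradiol and neither passed in a Torin arm with all libraries in the fit. Foxo1 (ENSMUSG00000044167.7), the FOXO factor best known for the response to insulin, had 209, 216 and 207 CPM with estradiol, against 315, 277 and 297 CPM with ethanol. The groups were well apart, with a log2 change of -0.49 (SE 0.048, edgeR adjusted p = 2.05e-06). Levels in Torin D6 were 60.1, 67.4 and 158 CPM, against 79.6, 86.2 and 81.8 CPM in DMSO D6. The first 2 Torin libraries were below all DMSO libraries and the third was far above them. With all libraries the log2 change was 0.21 (SE 0.28, adjusted p = 0.600), and without the third Torin D6 library it was -0.38 (SE 0.096, adjusted p = 0.00618), so that 1 library decides the direction. In Torin D12 Foxo1 had 78.8, 85.1 and 66.8 CPM, against 86.3, 87.9 and 84.3 CPM in DMSO D12. One Torin library lay between the DMSO values, and the change did not pass (log2 -0.16, SE 0.28, adjusted p = 0.730). The spread was estimated over both arms, so this SE and p-value also take in the third Torin D6 library. With the third Torin library of both arms left out, the D12 change was -0.056 and did not pass (SE 0.071, edgeR adjusted p = 0.586).

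Foxo3 (ENSMUSG00000048756.12), a second FOXO factor under the control of AKT, had 109, 104 and 100.0 CPM with estradiol, against 111, 115 and 111 CPM with ethanol. The groups did not overlap, but the distance was small and the log2 change of -0.10 did not pass (SE 0.046, edgeR adjusted p = 0.0974). In Torin D6 it had 97.3, 119.9 and 84.8 CPM, against 77.4, 90.9 and 84.9 CPM in DMSO D6. Levels in Torin D12 were 98.7, 113 and 66.3 CPM, against 88.9, 81.7 and 91.7 CPM in DMSO D12. In both arms the first and second Torin libraries were above all DMSO libraries of the arm and the third was not. The log2 changes were 0.25 in D6 and 0.082 in D12 (adjusted p = 0.271 and 0.785). With the third Torin library of both arms left out they were 0.35 and 0.29 and passed (adjusted p = 0.00869 and 0.0303), a choice made after the data were seen.

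Of the 3 FOXO target genes, Txnip passed in all 3 comparisons, Ccng2 with estradiol and Pdk4 in none. Txnip (ENSMUSG00000038393.15) encodes an arrestin-domain protein that binds thioredoxin and limits glucose uptake, and its transcription is driven by glucose through MondoA and ChREBP as well as by FOXO. It had 283, 299.9 and 277 CPM with estradiol, against 535, 527 and 512 CPM with ethanol. The groups were far apart and each varied little, with a log2 change of -0.87 (SE 0.041, edgeR adjusted p = 9.42e-10) and a fold change of 0.546. Its Torin D6 libraries had 49.1, 49.6 and 64.7 CPM, against 224, 272 and 227 CPM in DMSO D6. In Torin D12 it had 87.4, 93.6 and 105 CPM, against 268, 264 and 208 CPM in DMSO D12. Every Torin library was below every DMSO library in both arms, and the Torin D6 libraries were all below the Torin D12 libraries. The log2 changes were -2.14 in D6 (SE 0.14, adjusted p = 4.14e-07) and -1.37 in D12 (SE 0.14, adjusted p = 2.79e-05), or fold changes of 0.226 and 0.386. Without the third Torin D6 library, the highest of its group, the D6 change was -2.30. The window printed above for Txnip is the one that held both the FOXO motif and the CACGAG pair.

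Ccng2 (ENSMUSG00000029385.15), cyclin G2, an atypical cyclin linked to cell cycle arrest, had 57.1, 61.4 and 61.6 CPM with estradiol, against 71.0, 69.6 and 68.1 CPM with ethanol. All estradiol libraries were lower, with a log2 change of -0.21 (SE 0.046, edgeR adjusted p = 0.00232). It did not pass when gene-length factors were used as offsets (log2 -0.19, adjusted p = 0.0889). Levels in Torin D6 were 13.5, 18.1 and 65.2 CPM, against 16.4, 17.3 and 18.3 CPM in DMSO D6. The first 2 Torin libraries lay around the DMSO values and the third was far above them. The log2 change was 0.90 (SE 0.45, adjusted p = 0.135) with all libraries and -0.15 (adjusted p = 0.509) without the third. Its Torin D12 libraries had 17.9, 18.2 and 15.0 CPM, against 13.3, 17.9 and 18.2 CPM in DMSO D12. These groups overlapped (log2 0.047, SE 0.45, adjusted p = 0.956). As for Foxo1, that SE also takes in the third Torin D6 library. With the third Torin library of both arms left out, the D12 change was 0.15 and did not pass (SE 0.15, edgeR adjusted p = 0.484).

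Pdk4 (ENSMUSG00000019577.7), a pyruvate dehydrogenase kinase that spares glucose in fasting and a FOXO target in muscle and liver, had few counts. With estradiol it had 29, 46 and 22 counts, against 27, 39 and 24 counts with ethanol, which is 1.305, 2.12 and 1.03 CPM against 1.17, 1.64 and 1.17 CPM. The groups overlapped (log2 0.16, 95% interval -0.51 to 0.84, edgeR adjusted p = 0.729). In Torin D6 it had 41, 37 and 54 counts, or 1.39, 1.39 and 2.05 CPM, against 13, 24 and 13 counts, or 0.505, 1.07 and 0.469 CPM, in DMSO D6. The D6 groups did not overlap, but the log2 change of 1.25 did not pass (SE 0.51, adjusted p = 0.0720). Levels in Torin D12 were 14, 10 and 2 counts, or 0.532, 0.379 and 0.0700 CPM, against 16, 23 and 13 counts, or 0.589, 0.814 and 0.478 CPM, in DMSO D12. The groups overlapped (log2 -0.95, SE 0.56, adjusted p = 0.257). At this depth the intervals, 0.14 to 2.36 in D6 and -2.17 to 0.28 in D12 on the log2 scale, are too wide to size a change.

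**Figure D3:**
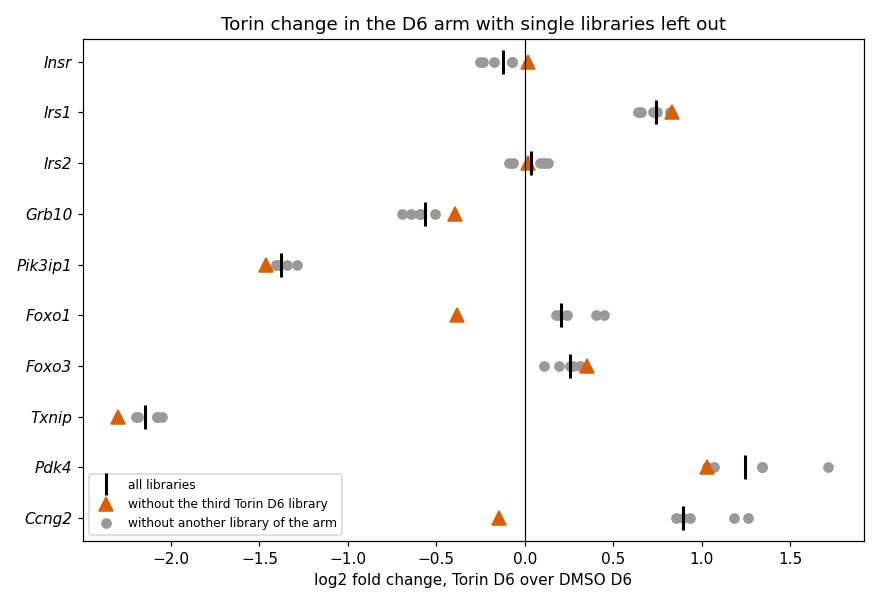
Log2 fold change of each gene in Torin D6 over DMSO D6 with all 6 libraries of the arm (black bars), without the third Torin D6 library (triangles) and without each other library (grey circles). Leaving out the third Torin library put Foxo1 at -0.38, left of 0, and Ccng2 at -0.15, while Txnip, Pik3ip1 and Irs1 stayed on their side under every omission.

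The Torin effect differed between the arms for 2 of the 10 genes, beside 10.6% of 18112 genes called, 5.03% upward and 5.55% downward. The difference, D12 minus D6, was 0.77 on the log2 scale for Txnip (SE 0.19, edgeR adjusted p = 0.0236), which fell less in D12 than in D6. It was 0.71 for Irs1 (SE 0.21, adjusted p = 0.0493), which rose more over its vehicle in D12. The DMSO level of Irs1 was itself lower in D12 than in D6 (log2 -0.29, not past the threshold), and this enters the difference. The call of Irs1 was lost without each of 9 of the 12 libraries, among them every DMSO library, and that of Txnip without the third DMSO D12, the second DMSO D6, the second Torin D12 or the first Torin D6 library. Without the third Torin D6 library the difference was 0.94 for Txnip and 0.64 for Irs1 (adjusted p = 0.00179 and 0.0456), and without the third Torin D12 library 0.70 and 0.86 (adjusted p = 0.0429 and 0.00703). For Pik3ip1 the difference was 0.19 with a 95% interval of -0.074 to 0.46 (adjusted p = 0.365), and by limma on the deposited signal it was 0.48 and passed (adjusted p = 0.0478). Pdk4 had the widest difference, -2.19 (SE 0.76, adjusted p = 0.0946), on the few counts given above. For Foxo1 the difference was -0.37 with all libraries, and 0.33 (adjusted p = 0.0370) with the third Torin library of both arms left out.

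The vehicle groups of the arms were set against each other because they differ in arm and length but not in drug. DMSO D12 against DMSO D6 gave no call among the 10 genes, beside 0.00552% of all genes, which is 1 gene. At an unadjusted p under 0.05 the count was 0 as well, and DESeq2 called 0. Irs1 had 108, 117 and 126 CPM in DMSO D12, against 159, 127 and 145 CPM in DMSO D6. It was the member with the smallest unadjusted p, 0.0701, and its groups did not overlap, as for 12.2% of all genes, 6.74% higher and 5.41% lower in D12. The log2 change was -0.29, with a 95% interval of -0.61 to 0.028 (edgeR adjusted p = 1). Txnip and Pik3ip1 changed by 0.033 and 0.036 on the log2 scale between the vehicle groups.

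The other genes of the pathway were taken from 5 lists. Of 13 further adaptors and inhibitors of the insulin receptor, 2 rose and 7 fell with estradiol, 3 rose and 6 fell in Torin D6, and 2 rose and 6 fell in Torin D12. The shares called were 69.2%, 69.2% and 61.5%, beside 34%, 39.1% and 25.4% of all genes. Their median log2 change was -0.18 with estradiol, -0.084 in D6 and -0.21 in D12, against -0.0060, 0.048 and 0.012 over all genes. Trib3, a pseudokinase that binds AKT, fell in all 3, by 0.23 on the log2 scale with estradiol, by 1.43 in D6 and by 0.84 in D12 (edgeR adjusted p = 0.00604, 1.99e-06 and 0.000239). It had 52.0, 47.3 and 39.3 CPM in Torin D6, against 114, 144 and 115 CPM in DMSO D6, with no overlap. Grb14 and Grb7, adaptors of the same family as Grb10, fell in all 3 comparisons too. Grb14 changed by -0.44 with estradiol, -0.69 in D6 and -1.43 in D12, and Grb7 by -0.42, -1.08 and -1.02. Socs3, a cytokine-induced inhibitor of the receptor, fell by 0.76 with estradiol, by 0.68 in D6 and by 0.21 in D12. Enpp1, a membrane phosphodiesterase that can restrain the receptor, fell with estradiol (log2 -0.52) and in D6 (-1.11) and had a log2 change of -0.33 in D12 that did not pass (adjusted p = 0.186). Of those that rose, Ptpn1, the phosphatase that removes phosphate from the receptor, changed by 0.39 with estradiol and 0.29 in D12, and Sh2b1, an adaptor that helps the receptor, by 0.36 in D6 and 0.41 in D12. Socs6 rose by 0.24 with estradiol. Rps6kb1, the S6 kinase gene, rose by 0.21 in D6 (adjusted p = 0.0471) and lost the call with gene-length factors as offsets (log2 0.11, adjusted p = 0.578).

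Among 19 genes of PI3K and AKT signalling, 7 rose and 2 fell with estradiol, 1 rose and 2 fell in Torin D6, and none rose and 2 fell in Torin D12. The share called was 47.4% with estradiol, above the 34% of all genes, and 15.8% in D6 and 10.5% in D12, below the 39.1% and 25.4% of all genes. The median log2 change was 0.11 with estradiol, -0.035 in D6 and -0.050 in D12. With estradiol Inpp4b, a lipid phosphatase, rose by 0.93 on the log2 scale, Pik3r3 by 0.35 and Pik3cb by 0.29, and Igf1r, the IGF1 receptor, changed by -0.34 and Pik3r1 by -0.16. Inpp4b had 15.4, 11.8 and 15.2 CPM with estradiol, against 7.79, 7.52 and 6.95 CPM with ethanol. With gene-length factors as offsets its change was 0.43 and did not pass (edgeR adjusted p = 0.108), and that of Igf1r was -0.24 (adjusted p = 0.0638). Inpp4b changed by -1.35 in Torin D12, where it also lost the call with these offsets (log2 -0.65, adjusted p = 0.280). Pik3r1, the main regulatory subunit of PI3K, had 236, 258 and 193 CPM in Torin D6, against 433, 487 and 472 CPM in DMSO D6. In Torin D12 it had 437, 410.4 and 361 CPM, against 439.9, 419 and 404 CPM in DMSO D12. It was lower in D6 (log2 -1.02, adjusted p = 1.85e-05) and overlapped in D12 (log2 -0.064, adjusted p = 0.723). Inppl1, a lipid phosphatase, changed by -0.38 in D6. The 1 rise in D6, Akt1, rested on 1 library. It had 41.3, 49.6 and 257 CPM in Torin D6, against 38.5, 43.2 and 35.9 CPM in DMSO D6, and its log2 change was 1.57 with all libraries and 0.20 (adjusted p = 0.123) without the third Torin library. Sh2b2, among the adaptors, behaved alike, with 2.04, 2.67 and 11.7 CPM in Torin D6, against 1.48, 1.92 and 1.73 CPM in DMSO D6. Its log2 change was 1.67 with all libraries and 0.45 (adjusted p = 0.221) without the third.

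Of 24 other FOXO factors and FOXO target genes, 21 were tested in the estradiol experiment, where 2 rose and 9 fell, and 20 in the Torin experiment, where 2 rose and 8 fell in D6 and 2 rose and 6 fell in D12. The shares called were 52.4%, 50% and 40%, beside 34%, 39.1% and 25.4% of all genes. Over the alternatives in processing, 6 to 14 of the list fell in D6 and 2 to 5 rose. The median log2 change was -0.22 with estradiol, -0.28 in D6 and -0.23 in D12, against -0.0060, 0.048 and 0.012 over all genes. Sod2, mitochondrial superoxide dismutase and a classical FOXO target, rose in all 3, by 0.32, 0.99 and 1.16 on the log2 scale. Sesn1, a sestrin that restrains mTOR complex 1, fell in all 3 and changed by -0.43 with estradiol, -1.25 in D6 and -1.01 in D12. Cdkn1b, the cyclin-dependent kinase inhibitor p27, fell with estradiol (log2 -0.53) and in D6 (-0.89). Mxi1, an antagonist of MYC, fell with estradiol (log2 -0.48) and in D12 (-1.23). Cited2, a transcriptional co-regulator, changed by -0.54 and Gadd45a, a DNA damage response gene, by 0.35 with estradiol. In Torin D6 Mxi1 had 11.4, 12.5 and 38.2 CPM, against 31.7, 39.1 and 31.9 CPM in DMSO D6. Cited2 had 3.63, 3.42 and 103 CPM in Torin D6, against 11.2, 12.1 and 11.0 CPM in DMSO D6. For both genes the first 2 Torin libraries were below all DMSO D6 libraries, and the third was far above those 2. Tnfsf10, the death ligand TRAIL, fell in D6 (log2 -0.72) and rose in D12 (0.48), with 26.7, 26.7 and 27.3 CPM in Torin D6, against 51.0, 43.1 and 38.9 CPM in DMSO D6. Its Torin D12 libraries had 52.4, 54.5 and 58.4 CPM, against 43.5, 41.1 and 34.2 CPM in DMSO D12, so the groups did not overlap in either arm and lay in opposite order. Fbxo32, atrogin-1, rose in D6 (log2 0.37) and Bcl6, a transcriptional repressor, fell in D12 (-1.02). Without the third Torin D12 library the change of Bcl6 in D12 was -1.50. Genes named as FOXO targets thus moved in both directions under each treatment.

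Of 8 arrestin-domain, MondoA and ChREBP genes, 3 fell with estradiol, 3 in Torin D6 and 2 in Torin D12, and none rose. These shares of 37.5%, 37.5% and 25% were close to the 34%, 39.1% and 25.4% of all genes. The median log2 change of the 8 was -0.15 with estradiol, -0.088 in D6 and -0.38 in D12. Arrdc4, the relative of Txnip that is also driven by glucose, had 79.1, 83.1 and 81.5 CPM with estradiol, against 102, 102 and 98.2 CPM with ethanol. Its Torin D6 libraries had 54.2, 55.0 and 60.8 CPM, against 100.2, 106 and 101 CPM in DMSO D6. Levels in Torin D12 were 72.3, 71.6 and 68.8 CPM, against 107, 110.3 and 114 CPM in DMSO D12. It was lower than its vehicle in every library, as Txnip was, with log2 changes of -0.31, -0.86 and -0.64 (edgeR adjusted p = 6.37e-05, 1.53e-06 and 3.69e-05). Arrdc3, a related gene, changed by -0.23 with estradiol, -0.54 in D6 and -0.44 in D12, the first of which was lost with gene-length factors as offsets (log2 -0.084, adjusted p = 0.326). Arrdc2 changed by -0.26 with estradiol, also lost with these offsets (adjusted p = 0.124). Mlxipl, which encodes ChREBP, fell in D6 (log2 -1.61, adjusted p = 0.00235). Mlxip, which encodes MondoA, did not pass in any comparison (log2 0.0068, 0.25 and 0.054).

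Of 11 genes of the pyruvate dehydrogenase complex and its regulators, 2 rose and 2 fell with estradiol, 3 rose and 3 fell in Torin D6, and 2 rose and 2 fell in Torin D12. The shares called were 36.4%, 54.5% and 36.4%, beside 34%, 39.1% and 25.4% of all genes. The median log2 change was 0.0098 with estradiol, 0.13 in D6 and 0.15 in D12. Pdk1, a kinase that switches the complex off as Pdk4 does and a target of the hypoxia factor HIF1A, fell in all 3. It had 114, 125 and 122 CPM with estradiol, against 184, 179 and 179 CPM with ethanol. Levels in Torin D6 were 51.3, 46.0 and 55.5 CPM, against 175, 189 and 190.3 CPM in DMSO D6, and in Torin D12 87.7, 81.5 and 97.0 CPM, against 195, 204 and 183 CPM in DMSO D12. The log2 changes were -0.59, -1.86 and -1.13 (edgeR adjusted p = 1.60e-07, 4.40e-08 and 6.21e-06), and like Txnip it was further from its vehicle in D6 than in D12. Pdk2 fell in D6 (log2 -0.55) and in D12 (-0.28), where it lost the call with gene-length factors as offsets (adjusted p = 0.159), and Pdp1, the phosphatase that switches the complex on, fell in D6 (-0.30). Among subunits, Pdhb rose in all 3 (log2 0.16, 0.26 and 0.23) and Dlat in D6 (0.37) and D12 (0.29), Dld rose in D6 (0.30), Pdhx rose with estradiol (0.31) and Pdha1 fell with it (-0.13).

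Some calls of these lists did not hold when single libraries were left out. With one library left out, among the genes named here the call was lost at least once for Arrdc2, Grb14, Pdha1, Pdhb and Pdhx with estradiol, for Akt1, Inppl1, Pdhb, Pdp1, Rps6kb1 and Sh2b2 in D6, and for Arrdc3, Bcl6, Dlat, Mxi1, Pdhb and Pdk2 in D12, at edgeR adjusted p-values of 0.0511 to 0.221. With gene-length factors as offsets Socs6, Pdhb and Pdha1 also lost their call with estradiol (adjusted p = 0.0513, 0.0592 and 0.0609). In D12 Mxi1 had 19.1, 15.3 and 14.4 CPM with Torin, against 38.7, 35.2 and 40.1 CPM with DMSO, with no overlap. Its spread was estimated over both arms, which takes in the third Torin D6 library at 38.2 CPM. With the third Torin library of both arms left out, a choice made after the data were seen, its D12 change was -1.13 (edgeR adjusted p = 1.01e-05). The calls of Sod2, Arrdc4 and Pdk1 with estradiol and in both Torin arms held without any 1 library. So did those of Trib3, Grb7 and Sesn1 in both Torin arms. Calls added beyond those named by size of change, among them Trib3, Grb7 and Sesn1 with estradiol, were not examined this way.

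**Figure D4:**
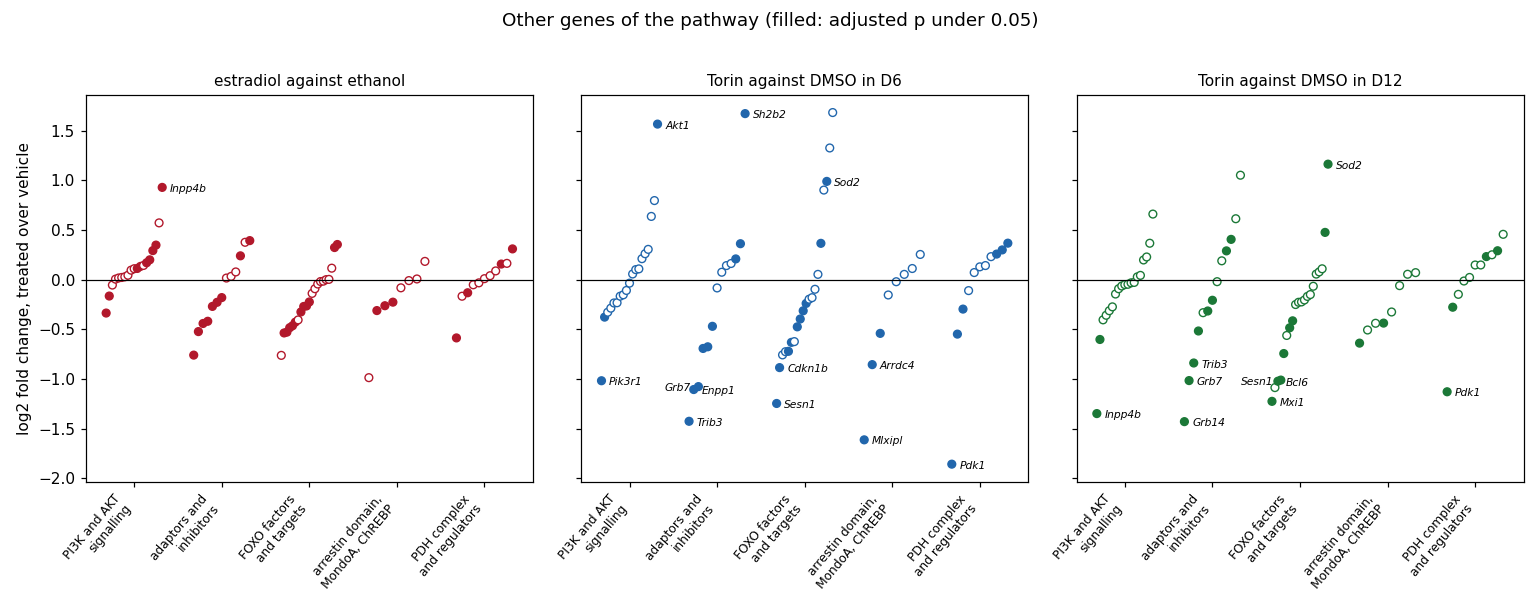
Log2 fold change, treated over vehicle, of every tested gene of the 5 lists, one panel for each comparison, sorted within a list. Filled points passed an adjusted p of 0.05, and named points have a log2 change beyond 0.8 in size and passed. Akt1 and Sh2b2 in Torin D6 rest on the third library, as given in the text.

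The genes whose levels ran most like those of Pik3ip1 and Txnip were found among 9794 genes by the root mean square difference of log2 CPM over the 6 group means, after the mean of each experiment was taken off. Nearest to Pik3ip1 were Mr1 at 0.0676, Gad1 at 0.0769 and Arhgef4 at 0.0794. Nearest to Txnip were Entpd1 at 0.0688, Mill2 at 0.0751 and B3gnt3 at 0.0876. These were picked for their likeness, so their changes are a description. Entpd1 changed by -0.83 with estradiol, -2.27 in Torin D6 and -1.26 in Torin D12 on the log2 scale, beside -0.87, -2.14 and -1.37 for Txnip. Mr1 changed by -0.66, -1.55 and -1.37, beside -0.74, -1.38 and -1.18 for Pik3ip1.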

How the data were processed

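Polyadenylated RNA of 18 organoid libraries was measured with a directional Illumina kit. Per the submitters' processing notes the build was GRCm39 and the tools included kallisto, DESeq2, cutadapt and Trim Galore, with no version or role. The authors' deposited estradiol table holds estimated counts per gene, 32.2% of them not whole, which were rounded here. Their deposited Torin table holds whole counts per gene symbol. The authors also deposited normalized signal tables, with factors that differ between genes, used only in alternatives, as values or, for the factors recovered from them, as gene-length offsets.

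Groups came from the sample labels. Each experiment was fitted alone in R 4.3.3 with edgeR 4.0.16 (filterByExpr, TMM, quasi-likelihood test on group means, no covariates), with Benjamini-Hochberg adjustment over all genes tested. The procedure was tested on simulated data with 100 genes changed at each size. For log2 changes of 1 and 2 in size it recovered 82% and 94% with estradiol, with 16 false calls. In Torin D6 it recovered 59% and 77%, with 5 false calls, so a true change there can be missed. Intervals are 95% and cover 1 gene each. Alternatives used DESeq2 1.42.0, limma 3.58.1, other filters, RLE scaling, a replicate block, gene-length offsets and omission of single libraries. The genes, the lists and the tests were chosen with earlier results of these data known. All 10 genes were named in every comparison. Of each list, up to 3 genes per direction and comparison were named, by size of change among those past the threshold, and for genes past it in all 3 comparisons the 3 most alike. Their other comparisons, Mlxip and the values of single libraries were added after they were seen. The result of 1 gene that this rule names is not reported here.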

Additional observations from a re-analysis of the deposited data

Results flagged for a closer look

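For 10 of the genes named above the Torin effect differed between the arms by a test of the difference itself (D12 minus D6, edgeR's quasi-likelihood test, adjusted over 18112 genes, of which 10.6% passed). Among the 10 genes chosen, these were Txnip, at 0.77 on the log2 scale (SE 0.19, adjusted p = 0.0236), and Irs1, at 0.71 (SE 0.21, adjusted p = 0.0493). Pik3r1, Pdk1 and Trib3 fell in D6 and less, or not past the threshold, in D12. The difference was 0.95 for Pik3r1 (SE 0.15, adjusted p = 0.00197), 0.73 for Pdk1 (SE 0.12, adjusted p = 0.00312), and 0.59 for Trib3 (SE 0.16, adjusted p = 0.0356). Socs3 had 0.47 (SE 0.095, adjusted p = 0.00880). Grb14, which fell more in D12, had a difference of -0.74 (SE 0.19, adjusted p = 0.0281). Socs6 had -0.48 (SE 0.10, adjusted p = 0.0127) and Inpp4b -1.196 (SE 0.34, adjusted p = 0.0446). The D12 change of Inpp4b lost its call with gene-length factors as offsets (log2 -0.65, adjusted p = 0.280). For the flagged genes outside the 10 chosen, the difference was not examined under the alternatives. Tnfsf10 fell in D6 and rose in D12, with a difference of 1.197 (SE 0.16, adjusted p = 0.000618). Arm and treatment length cannot be told apart in these values. Of the 10 fibroblast markers, 9 had a higher Torin effect in D12 than in D6 and 0 a lower one. Grb14, Socs6 and Inpp4b differed in the other direction. Of the 6 epithelial markers 1 was higher and 3 lower, of 10 luminal markers 2 and 2, and of 10 basal myoepithelial markers 4 and 1. The part of these cell types was not tested.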

How the results depend on the processing

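Over the 820 values of the 10 genes under alternatives, 740 kept their direction and side of the threshold, 23 lost the call, 7 gained one and 50 changed sign. Of the 50, 47 passed the threshold with neither sign and 3, all of Foxo1, passed with the changed sign. Foxo1 was -0.38 on the log2 scale in D6 without the third Torin D6 library and with the third Torin library of both arms left out, and its difference between arms was 0.33 with both left out. Leaving out both also gave, with no call, 0.018 for Insr and -0.15 for Ccng2 in D6, 0.062 for Grb10 in D12, and differences of -0.036 for Insr and 0.30 for Ccng2. Over single omissions, the log2 changes with a changed sign ran as follows. With estradiol Irs1 ran from -0.041 to 0.098, Grb10 from -0.091 to 0.092 and Pdk4 from -0.18 to 0.37. In D6 Foxo1 ran from -0.38 to 0.45, Insr from -0.26 to 0.017, Irs2 from -0.091 to 0.13 and Ccng2 from -0.15 to 1.26. In D12 Grb10 ran from -0.23 to 0.045, Foxo3 from -0.084 to 0.27 and Ccng2 from -0.085 to 0.13. The difference between arms ran from -0.098 to 0.16 for Insr, -0.59 to 0.24 for Foxo1, -0.34 to 0.020 for Foxo3 and -1.196 to 0.21 for Ccng2. For DMSO D12 against D6 the range was -0.16 to 0.0011 for Insr, -0.018 to 0.18 for Irs2, -0.0090 to 0.11 for Foxo3, -0.031 to 0.14 for Txnip, -0.34 to 0.36 for Pdk4 and -0.15 to 0.059 for Ccng2. By limma on the signal Grb10 was 0.019 with estradiol, and Pik3ip1 was -0.0058 and Txnip -0.024 for DMSO. With gene-length offsets these were 0.012, -0.0051 and -0.018, and Ccng2 in D12 was -0.0082. The falls of Txnip and Pik3ip1 and the rise of Irs1 in the arms kept their call under every alternative. Of the 10 genes, the number whose Torin effect was higher in D12 than in D6 was 0 at an adjusted p under 0.01, 1 with the replicate block and 1 with gene-length offsets, and 1 was lower with DESeq2 (Pdk4, -2.20, adjusted p = 0.0432). By limma on the signal Pik3ip1 gained the call for the difference (0.48, adjusted p = 0.0478). With the third Torin library of both arms left out, 2 rose in D6 and 2 in D12. Leaving out single libraries gave 1 to 2 genes rising and 2 to 4 falling in D6, 1 rising and 2 falling in D12, 0 to 2 higher and 0 lower for the difference, 0 rising and 5 to 6 falling with estradiol, and 0 for DMSO. The 6 came from Insr, which passed without the second ethanol library (-0.18, adjusted p = 0.0319). Pdk4 passed in D6 without the second DMSO D6 library (1.71, adjusted p = 0.0433) and Ccng2 without the first Torin D6 library (1.26, adjusted p = 0.0243). The cause of these changes was not tested.

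Same-numbered treated and vehicle libraries did not deviate together (correlations -0.0567 to -0.0247 for estradiol, -0.0500 to 0.0664 in D6, -0.237 to -0.0759 in D12). The Torin libraries of D6 were not set against those of D12 in this way. The main fit therefore used no pairing, but these values cannot exclude one, since no library is tied to a mouse. With the replicate number as a block the Irs1 difference between arms was 0.70 (edgeR adjusted p = 0.0682), and no other of the 10 genes changed its call. Counts over all genes moved by over 1.5 times at an adjusted p under 0.01 (estradiol 1739 up and 1658 down, D6 2141 up, D12 1076 up and 1657 down, difference 399 up and 443 down). With estradiol 1677 fell by limma on the signal and 1689 with gene-length offsets, against 2552. With the third Torin library of both arms left out, D12 had 3243 up, against 1955, and the difference 1759 up and 1549 down, against 911 and 1006. Without the third DMSO D6 library the difference had 596 up and 623 down, and without the first or second Torin D12 library 644 or 669 down. For DMSO D12 against D6, 7 rose and 7 fell by DESeq2, 2 and 2 without a filter, and 8 and 8 with those groups alone. Of 964 values of the other named genes, 846 kept their call and 118 lost it. Of the 10 genes Pdk4 had the fewest counts, and what depth limits was not tested.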
